A study of Homo sapiens with 6 samples.

Results

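The genes described here are the human Rab GTPases other than RAB23, measured in KYSE30 cells whose RAB23 transcript had been lowered by RNA interference. Members were the protein-coding genes whose symbol is RAB followed by a number and at most 1 letter from A to D, without RAB23 itself. This rule found 62 of the 58735 genes in the table. It uses names alone and no measured value. The processed pseudogene RAB1C has such a symbol but is not protein coding and was left out.

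KYSE30 is an established line derived from a human oesophageal squamous cell carcinoma. The cells of all 3 groups had been transfected with an siRNA at 100 nM using the lipid reagent HiPerFect. The first group received the control siRNA si-NC, the second si-RAB23-1 and the third si-RAB23-9, both directed against RAB23, and each group has 2 libraries of total RNA. All values come from 1 line, and per the labels the knockdown had been examined by immunoblot. Neither the sequences of the siRNAs nor the time of harvest is given in the sources used here.

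Rab GTPases are small switch proteins that mark the membranes of the cell. Bound to GTP they recruit effectors such as tethers, motors and coat factors, and bound to GDP they are taken off the membrane by GDP dissociation inhibitors. Exchange factors load them with GTP, GTPase-activating proteins turn them off, and a prenyl group attached by Rab geranylgeranyl transferase anchors them. In an epithelial cell, different members serve transport from the endoplasmic reticulum to the Golgi, delivery to the plasma membrane and the cilium, endocytosis, recycling and lysosomal degradation. RAB23 itself is best known for restraining the Hedgehog pathway.

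Short matches in 3′ untranslated regions (UTRs) are printed here because several of the Rab genes described below carry them. Of the words named next, RAB23 has GACATAT only. An earlier look at these same libraries had singled out the 7-base words GACATAT and, besides it, AAGTTAA and also TCGGAGA as ones whose carriers differed in level between groups. They are therefore no independent evidence. The first set holds every GACATAT in the 3′ UTRs of RAB23 and of the 6 tested members that have the word. Each line runs 5′ to 3′ on the transcript strand, with the word in capitals and 10 bases on either side.
RAB23, first copy: ataaactctaGACATATattttgcaaa
RAB23, second copy: cttttgcgtaGACATATcgctgtggaa
RAB8B: aaccaaaactGACATATtctgtggtta
RAB22A: tcataataaaGACATATgccactttga
RAB2B: tactgaatgtGACATATttattcctag
RAB10: atgtgcaggaGACATATcatccaaaca
RAB6B: agtctttgtgGACATATctttgtggct
RAB3B: tggccacaggGACATATtttgttttgg

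On GRCh38 the capitals lie at chr6:57189788-57189794 and chr6:57188043-57188049 on the minus strand for RAB23. They lie at chr15:63265718-63265724 on the plus strand for RAB8B and at chr20:58360853-58360859 on the plus strand for RAB22A. The word of RAB2B is at chr14:21459809-21459815 on the minus strand and that of RAB10 at chr2:26135594-26135600 on the plus strand. RAB6B has it at chr3:133827602-133827608 and RAB3B at chr1:51918054-51918060, both on the minus strand.

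The second set shows AAGTTAA in RAB8A and in 1 of the 7 copies of RAB21, which were lower with si-RAB23-9. It also shows the word in RAB29 and RAB22A, which were not lower with that siRNA. These are examples from the 11 tested members that carry the word. RAB2A, also a carrier and called higher with si-RAB23-1, is not printed.
RAB8A: gagatggaatAAGTTAAaaatttgcta
RAB21: ctggaactagAAGTTAActacttactg
RAB29: gaaaagagagAAGTTAAcaacctccac
RAB22A: gtggtcctgaAAGTTAAcaggagggct

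These words are at chr19:16132503-16132509 for RAB8A, chr12:71792227-71792233 for RAB21 and chr20:58359750-58359756 for RAB22A on the plus strand, and at chr1:205769204-205769210 for RAB29 on the minus strand. A match is a run of letters and not a shown binding site.

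Levels are given as FPKM, which divides the fragments of a gene by its length and by the size of the library, so genes can be set against each other. Recovered reads per library ran from 17211025 to 24178125, and between 13576 and 13700 genes reached 1 FPKM. Replicates differed by more than sampling noise, with chi-square per degree of freedom of 1.72 to 3.27. RAB23 stood at 3.27 and 3.33 FPKM under si-NC, 1.03 and 1.10 under si-RAB23-1, and 1.18 and 1.27 under si-RAB23-9. Its log2 fold changes on the log2(FPKM + 1) scale were -1.06 and -0.95 (SE 0.0815, limma adjusted p = 0.00314 and 0.00392), resting on 84 to 384 reads per library.

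The line was checked against marker lists. Of 8 squamous markers, 6 reached 1 FPKM, while KRT5 and PKP1 stayed below 1 FPKM in every library. The summed squamous level was 67.3 to 73.5 FPKM under si-NC, 114.0 to 118.8 with si-RAB23-1 and 94.2 to 97.4 with si-RAB23-9. Single markers did not all follow the sum. SOX2 averaged 38.2 FPKM under si-NC, 62.7 under si-RAB23-1 and 64.0 under si-RAB23-9, whereas TP63 averaged 14.4, 19.4 and 11.7 and was called higher with si-RAB23-1 and lower with si-RAB23-9 (limma adjusted p = 0.00574 and 0.0156). DSG3 averaged 9.15, 18.1 and 9.31 FPKM and KRT17 2.37, 3.58 and 2.24, both called higher with si-RAB23-1 and not called with si-RAB23-9. KRT6A averaged 3.99, 9.26 and 5.37 FPKM and, like SOX2, was called higher with each RAB23 siRNA. KRT14 averaged 2.19, 3.15 and 3.10 FPKM and was not called. The summed level of 4 columnar markers was 0.232 to 0.744 FPKM over the 6 libraries, that of 4 leukocyte markers 0.0474 to 0.122 and that of 4 fibroblast markers 3.38 to 3.81, with COL1A2 and DCN at 0 throughout. Of 3 endothelial markers only CDH5 reached 1 FPKM, and the summed level was 3.77 to 3.79 with si-NC, 1.62 to 2.09 with si-RAB23-1 and 2.73 to 3.17 with si-RAB23-9. The part of the squamous and endothelial markers in the Rab results was not tested.

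Most of the Rab transcript in these cells came from a few members. In the si-NC libraries RAB7A, which directs late endosomes to lysosomes, was highest at 108.6 FPKM ± 0.354 (SD, n = 2), or 11.6% of the summed FPKM of the family. RAB25, the epithelial member of the RAB11 subfamily of recycling Rabs, followed at 90.6 ± 0.446 FPKM (9.67%). RAB1B and RAB1A, which act between the endoplasmic reticulum and the Golgi, stood at 76.9 ± 1.50 and 67.5 ± 0.566 FPKM. RAB10, a Rab of polarised exocytosis, stood at 61.8 ± 1.35 FPKM, so that each of these 5 levels lay apart from its neighbour by more than 1 SD. The 10 highest members held 64.0% of the summed FPKM.

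At the other end, 17 members did not reach 1 FPKM in 2 libraries and were not tested. RAB30 came closest with a highest value of 0.954 FPKM on 187 reads. RAB7B and RAB40A, relatives of members called below, peaked at 0.777 and 0.481 FPKM. Of the brain-rich RAB3 genes, RAB3A peaked at 0.868 FPKM. RAB39A was at 0 in all 6 libraries, and RAB3C, a Rab of regulated secretion in neurons, had a read in 1 library. In all, 55 members were above 0 in every library and 20 were at 10 FPKM or more in every library. The 45 tested members passed a filter on level, so counts over them do not describe all 62.

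**Figure D1:**
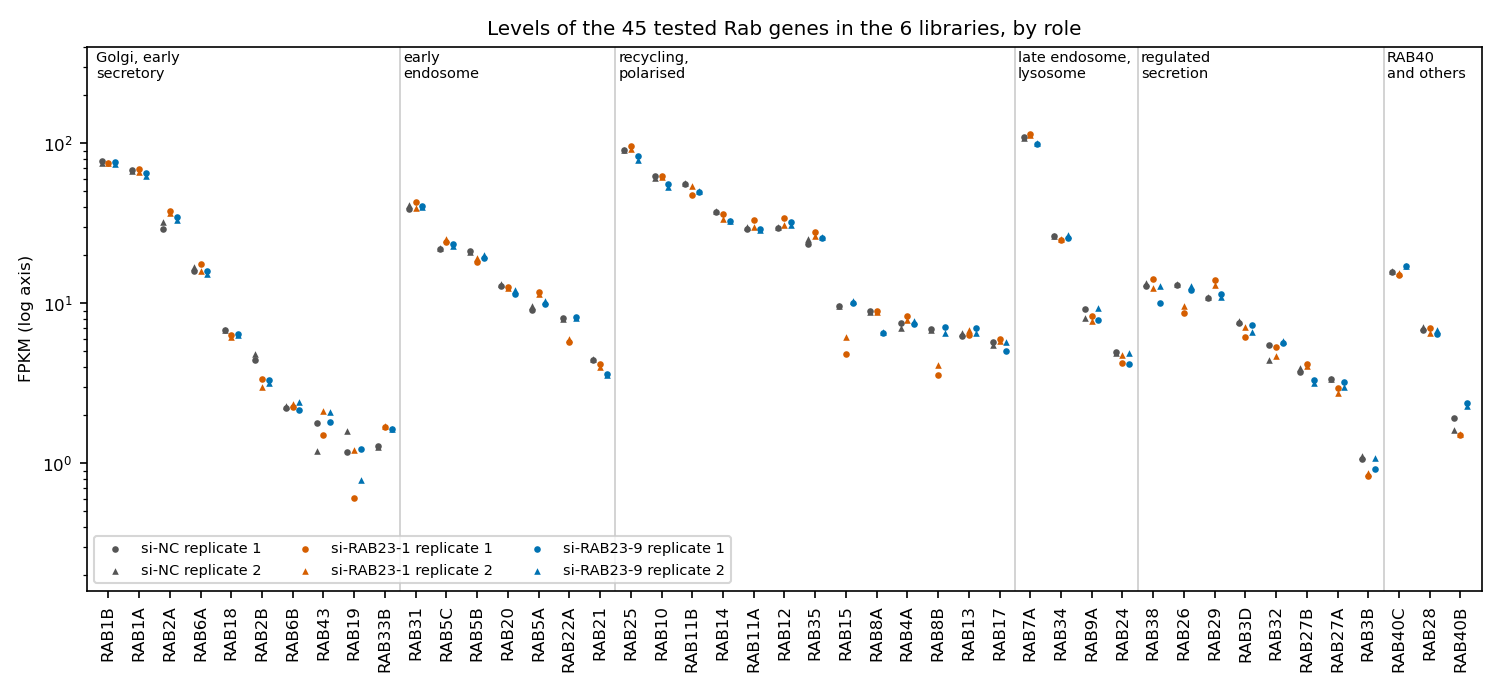
Level of the 45 tested Rab members in FPKM (log axis) in each of the 6 libraries, coloured by siRNA, with a marker shape per replicate and genes grouped by role. RAB7A, RAB25, RAB1B, RAB1A and RAB10 lead in si-NC, and most members lie at nearly the same level in all libraries.

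By role, recycling and polarised delivery took the largest share, 40.0% of the summed FPKM of the family in si-NC over 14 members. Golgi and early secretory members took 22.5%, late endosome, lysosome and autophagy members 15.9%, early endosome members 12.6%, regulated secretion 6.28% and the RAB40 group with the remaining members 2.69%. The family sum was 934.0 and 939.5 FPKM under si-NC, 945.5 and 929.0 under si-RAB23-1, and 897.4 and 891.0 under si-RAB23-9. The si-RAB23-9 libraries thus both lay below the other 4, at 0.955 times si-NC, whereas the ratio for si-RAB23-1 was 1.00. Of the role groups, late endosome, lysosome and autophagy members summed to 149.8 and 148.6 FPKM under si-NC, 151.8 and 151.3 under si-RAB23-1, and 138.0 and 141.4 under si-RAB23-9. The recycling group summed to 374.4 and 375.4 FPKM under si-NC, 376.3 and 368.1 under si-RAB23-1, and 352.1 and 344.8 under si-RAB23-9. Sums give most weight to abundant members and were not tested.

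With si-RAB23-1, 4 members were higher and 5 lower than with si-NC (limma, adjusted p under 0.05 over 14352 genes). That is 9 of the 45 tested, where 15.4% of all genes tested were called, 8.13% higher and 7.26% lower. The lower members were RAB15, RAB8B, RAB26, RAB2B and RAB22A, and the higher ones RAB29, RAB5A, RAB2A and RAB5C. The median log2 fold change of the tested members was 0.002, beside 0.008 for all genes. Every fold change is taken after adding 1 to the FPKM and therefore understates the changes of genes at low level. In bulk RNA, fewer cells with a transcript and less of it per cell cannot be told apart.

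RAB8B and RAB15 moved furthest. RAB8B, which with RAB8A serves delivery from the Golgi to the plasma membrane and the cilium, stood at 6.91 and 6.81 FPKM under si-NC, 3.54 and 4.13 under si-RAB23-1, and 7.10 and 6.50 under si-RAB23-9 (chromosome 15, 63189469 to 63267782, GRCh38). Both si-RAB23-1 libraries lay below the other 4, and the log2 fold change was -0.70 (SE 0.075, limma adjusted p = 0.00572). RAB15, a Rab of the endosomal recycling route, stood at 9.62 and 9.69 FPKM under si-NC, 4.84 and 6.19 under si-RAB23-1, and 10.1 and 10.4 under si-RAB23-9 (chromosome 14, 64945814 to 64973226). Its log2 fold change with si-RAB23-1 was -0.72 (SE 0.0974, limma adjusted p = 0.0103), again with both libraries below the rest.

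RAB26, a Rab of secretory granules, and RAB22A, a Rab of early endosomes and recycling tubules, were also lowest with si-RAB23-1. RAB26 stood at 12.9 and 13.2 FPKM under si-NC, 8.73 and 9.69 under si-RAB23-1, and 12.0 and 12.9 under si-RAB23-9 (chromosome 16, 2140803 to 2154165). The log2 fold change with si-RAB23-1 was -0.47 (SE 0.0613, limma adjusted p = 0.00943). RAB22A stood at 8.07 and 8.02 FPKM under si-NC, 5.73 and 5.98 under si-RAB23-1, and 8.20 and 8.06 under si-RAB23-9 (chromosome 20, 58309696 to 58367507). It was lower with si-RAB23-1 by a log2 fold change of -0.40 (SE 0.0434, limma adjusted p = 0.00573).

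The higher members changed less. RAB29, a relative of RAB32 and RAB38 known to recruit the kinase LRRK2 to membranes, stood at 10.8 and 10.9 FPKM under si-NC, 14.1 and 13.0 under si-RAB23-1, and 11.4 and 11.0 under si-RAB23-9 (chromosome 1, 205767986 to 205775460). That is 1.25 times si-NC with si-RAB23-1, a log2 fold change of 0.29 (SE 0.0494, limma adjusted p = 0.0179). LRRK2 itself had at most 5 reads in a library. RAB5A, RAB2A and RAB5C are described with their paralogues below.

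Whether these calls held depended on which library was left out, and only that of RAB8B held each time. With 1 library left out, the log2 fold change with si-RAB23-1 lay between -0.79 and -0.61 for RAB8B. For RAB15 it lay between -0.87 and -0.57, and that call ended without either si-NC library.

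**Figure D2:**
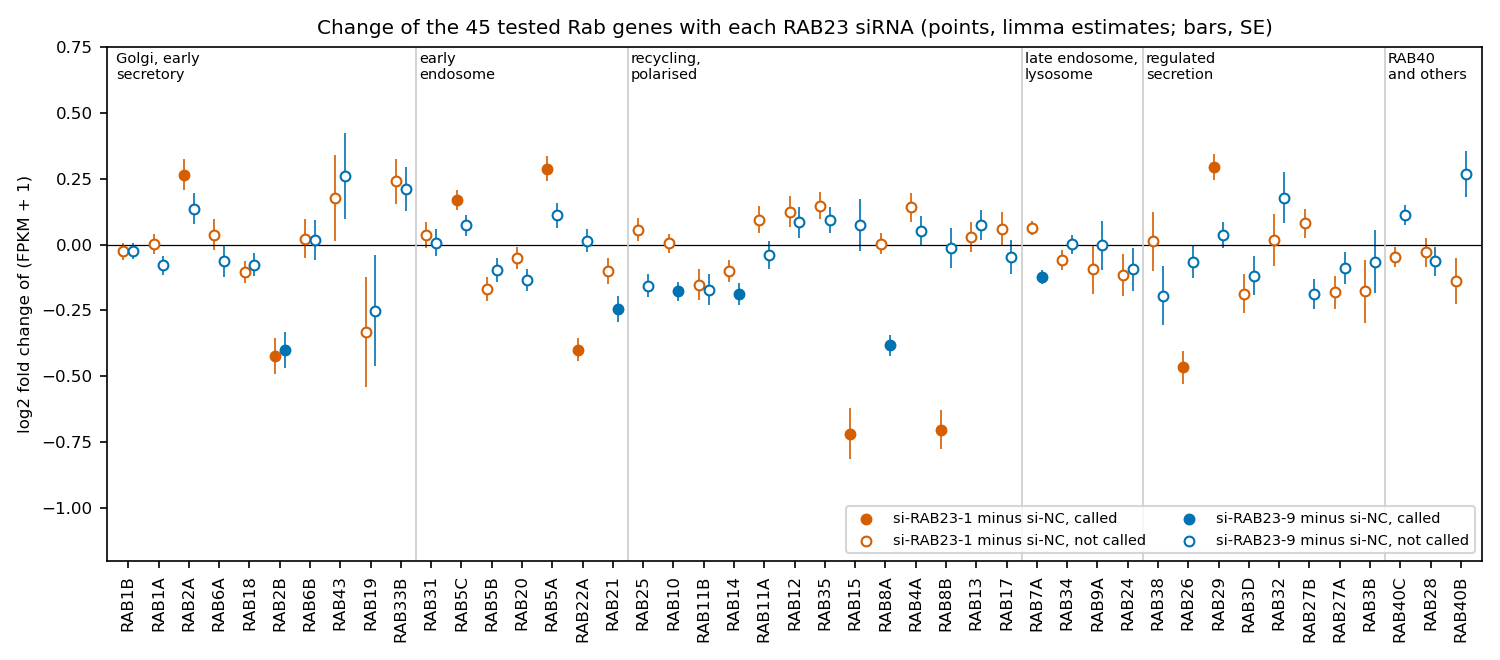
Log2 fold change against si-NC on the log2(FPKM + 1) scale for the 45 tested members, with bars for the SE and filled points for members called by limma. RAB15 and RAB8B are lowest with si-RAB23-1, and no member called with si-RAB23-9 is higher.

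With si-RAB23-9, 6 members were lower than with si-NC and 0 higher by limma. That is 13.3% of the 45 tested members, beside 13.3% of all genes called, 5.69% lower and 7.56% higher. At an unadjusted p under 0.05, 10 members were lower and 3 higher, and voom on recovered reads called 9 lower and 2 higher. No share over all genes is given beside these unadjusted and voom counts, nor beside those below. The median log2 fold change was -0.05, beside 0.006 for all genes. The 6 were RAB8A, RAB2B, RAB21, RAB14, RAB10 and RAB7A. Both comparisons with si-NC use the same 2 control libraries.

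RAB8A was the clearest of them. It stood at 8.96 and 8.78 FPKM under si-NC, 8.91 and 8.89 under si-RAB23-1, and 6.50 and 6.64 under si-RAB23-9 (chromosome 19, 16111629 to 16134234). The si-RAB23-9 libraries lay below the other 4, at 0.740 times si-NC, with a log2 fold change of -0.38 (SE 0.0406, limma adjusted p = 0.00611). An antisense gene, AC008894.2, covers 37.8% of the exonic bases of RAB8A and stood at 0.143 to 0.355 FPKM. On the same strand HSH2D shares 3.99% of them (207 bases) and stood at 9.27 to 15.1 FPKM, above RAB8A itself in every library. The use of strand in counting is not given in the sources used here, so reads of these overlaps may be mixed.

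RAB7A, RAB10 and RAB14 are abundant, and their falls were small. RAB7A (chromosome 3, 128726122 to 128814796) stood at 108.9 and 108.4 FPKM under si-NC, 113.8 and 113.0 under si-RAB23-1, and 99.5 and 99.9 under si-RAB23-9, a log2 fold change of -0.12 for si-RAB23-9 (SE 0.0266, limma adjusted p = 0.0385). RAB10 (chromosome 2, 26034107 to 26137454) stood at 62.8 and 60.9 FPKM under si-NC, 62.4 and 61.6 under si-RAB23-1, and 55.8 and 53.5 under si-RAB23-9, a log2 fold change of -0.18 (SE 0.0361, limma adjusted p = 0.0321). In both genes the si-RAB23-9 libraries were the lowest pair.

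RAB14, which acts between the Golgi and endosomes (chromosome 9, 121178137 to 121223014), stood at 37.3 and 37.9 FPKM under si-NC, 36.1 and 33.8 under si-RAB23-1, and 32.9 and 32.8 under si-RAB23-9. Its log2 fold change with si-RAB23-9 was -0.19 (SE 0.0414, limma adjusted p = 0.0392). RAB21, a Rab of integrin endocytosis (chromosome 12, 71754874 to 71800285), stood at 4.41 and 4.50 FPKM under si-NC, 4.16 and 4.02 under si-RAB23-1, and 3.61 and 3.58 under si-RAB23-9, a log2 fold change of -0.25 (SE 0.0497, limma adjusted p = 0.0311). Without either si-NC library, or without either si-RAB23-9 library, limma called 0 members with si-RAB23-9, while 7 or 8 were lower at an unadjusted p under 0.05.

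Set directly against each other, the RAB23 siRNAs differed for 13 members, of which 6 stood higher under si-RAB23-9 and 7 stood lower there than under si-RAB23-1. That is 28.9% of the 45, beside 21.0% of all genes, 11.1% higher and 9.89% lower. RAB15 (log2 difference 0.79, limma adjusted p = 0.0065) and RAB8B (0.69, adjusted p = 0.0045) were furthest apart, followed by RAB22A (0.41, adjusted p = 0.00414) and RAB8A (-0.39, adjusted p = 0.00414). These 4 were called whichever library was left out, while in all 6 members were called without replicate 1 of si-RAB23-1, 5 without replicate 1 of si-RAB23-9 and 4 without its replicate 2.

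Another 4 members were called only in this direct comparison. They were RAB25, RAB27B, RAB40B and RAB40C, and each call ended without at least 1 of the 6 libraries. RAB25 (chromosome 1, 156061160 to 156070514) stood at 90.9 and 90.3 FPKM under si-NC, 96.7 and 91.9 under si-RAB23-1, and 83.7 and 78.8 under si-RAB23-9, with a log2 difference between the siRNAs of -0.21 (SE 0.0426, limma adjusted p = 0.0235). RAB27B, a Rab of secretory granule and exosome release, stood at 3.72 and 3.94 FPKM under si-NC, 4.16 and 4.05 under si-RAB23-1, and 3.31 and 3.17 under si-RAB23-9. Its log2 difference was -0.27 (SE 0.0557, limma adjusted p = 0.0254), a call that ended when any 1 of the 6 libraries was left out. Its paralogue RAB27A, at 2.76 to 3.39 FPKM over the libraries, was called in no comparison.

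RAB40B and RAB40C, which carry a SOCS box and serve as substrate receptors of a cullin ubiquitin ligase, were higher with si-RAB23-9 than with si-RAB23-1. RAB40B (chromosome 17, 82654973 to 82698728) stood at 1.92 and 1.62 FPKM under si-NC, 1.50 and 1.52 under si-RAB23-1, and 2.38 and 2.27 under si-RAB23-9, a log2 difference of 0.41 (SE 0.0886, limma adjusted p = 0.0291). RAB40C (chromosome 16, 589357 to 629272) stood at 15.8 in both si-NC libraries, 15.0 and 15.5 FPKM under si-RAB23-1, and 17.1 and 17.2 under si-RAB23-9, a log2 difference of 0.16 (SE 0.0369, limma adjusted p = 0.0345).

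**Figure D3:**
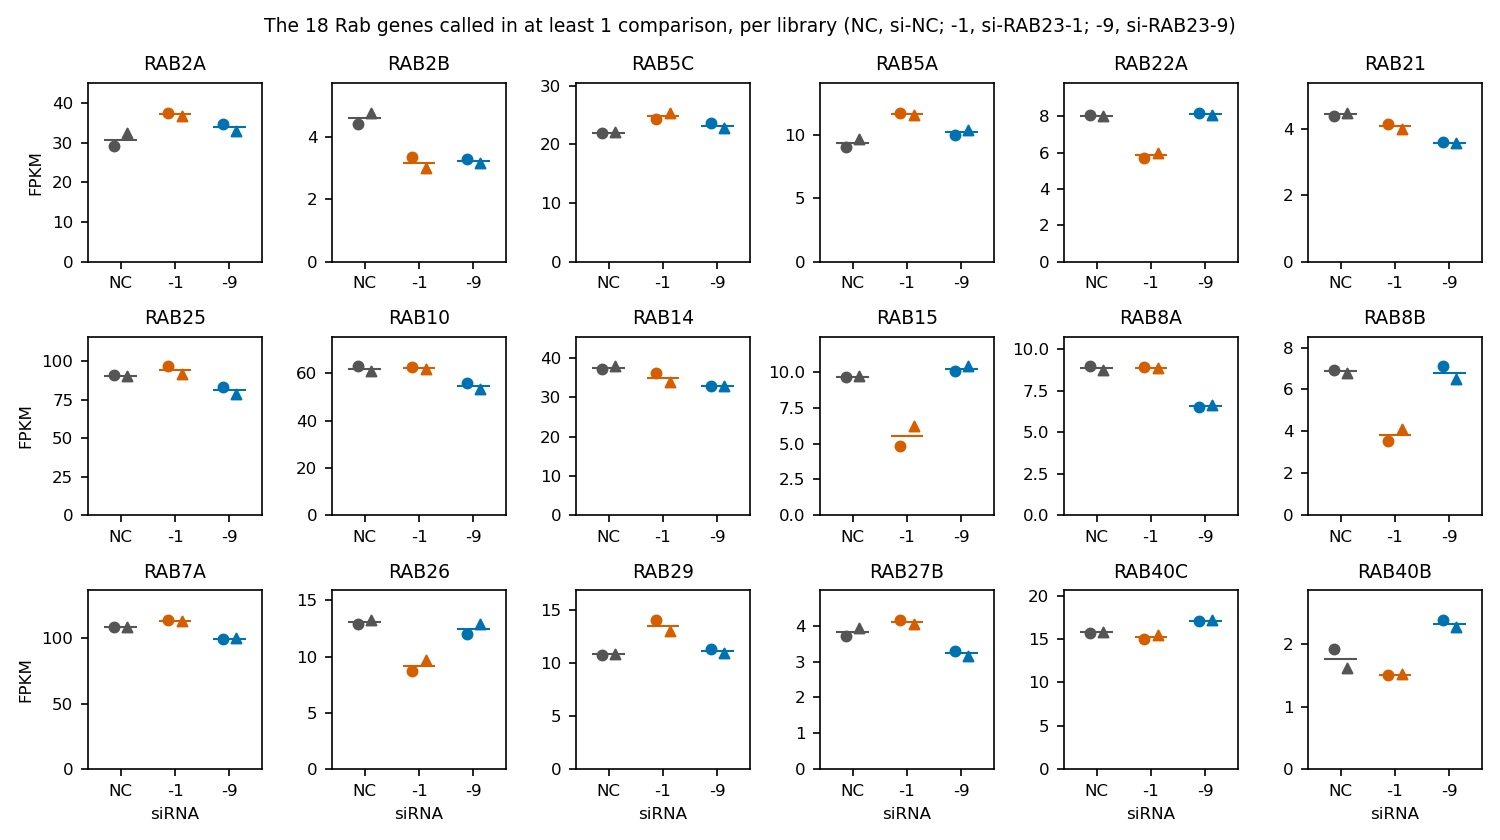
FPKM of the members called in at least 1 comparison, 1 panel a gene, with a point for each library and a line at the group mean. RAB8B, RAB15, RAB22A and RAB26 are low in the si-RAB23-1 libraries, RAB8A in the si-RAB23-9 libraries and RAB2B in both.

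In several sets of close paralogues the genes had different calls. RAB8B was lower with si-RAB23-1 and RAB8A with si-RAB23-9, although the encoded proteins are closely related. RAB8B made up 43.5% and 43.7% of their summed FPKM under si-NC, 28.4% and 31.7% under si-RAB23-1, and 52.2% and 49.5% under si-RAB23-9. Their sum was 15.9 and 15.6 FPKM under si-NC, 12.4 and 13.0 under si-RAB23-1, and 13.6 and 13.1 under si-RAB23-9, so it was below si-NC in all 4 libraries with a RAB23 siRNA.

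RAB2A and RAB2B, which act in transport between the endoplasmic reticulum and the Golgi, went opposite ways with si-RAB23-1. RAB2B (chromosome 14, 21459020 to 21476973) stood at 4.43 and 4.79 FPKM under si-NC, 3.36 and 3.02 under si-RAB23-1, and 3.31 and 3.18 under si-RAB23-9. It was called lower in each comparison with si-NC, with log2 changes of -0.42 and -0.40 (SE 0.068, adjusted p from limma of 0.0159 and 0.0193). With 1 library left out, these changes lay between -0.48 and -0.36 and between -0.45 and -0.35. Both comparisons share the si-NC libraries, and neither call held without either of them. The call with si-RAB23-9 also ended without either si-RAB23-9 library. On the opposite strand TOX4 shares 3.4% of the exonic bases of RAB2B (124 bases). TOX4 stood at 7.32 to 9.89 FPKM, above RAB2B, so reads of this overlap may be mixed. RAB2A, the more abundant of the pair, stood at 29.1 and 32.4 FPKM under si-NC, 37.5 and 36.7 under si-RAB23-1, and 34.8 and 33.0 under si-RAB23-9. Its log2 fold change with si-RAB23-1 was 0.27 (SE 0.0582, limma adjusted p = 0.036) and was no longer called when any 1 of the 6 libraries was left out. RAB2B fell from 13.2% and 12.9% of the pair's summed FPKM to between 7.59% and 8.81% in the other 4 libraries.

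Of the RAB5 genes of the early endosome, RAB5A and RAB5C were higher with si-RAB23-1 and RAB5B was not called. RAB5A (chromosome 3, 19947079 to 19985175) stood at 9.06 and 9.62 FPKM under si-NC, 11.7 and 11.5 under si-RAB23-1, and 9.96 and 10.4 under si-RAB23-9, a log2 fold change of 0.29 (SE 0.0471, limma adjusted p = 0.0167). RAB5C (chromosome 17, 42124976 to 42155044) stood at 21.9 and 22.1 FPKM under si-NC, 24.3 and 25.4 under si-RAB23-1, and 23.5 and 22.8 under si-RAB23-9, a log2 fold change of 0.17 (SE 0.039, limma adjusted p = 0.0402), a call that ended without any 1 of the 6 libraries. RAB5B stood at 21.3 and 21.0 FPKM under si-NC, 18.1 and 19.3 under si-RAB23-1, and 19.3 and 20.1 under si-RAB23-9, with a log2 fold change for si-RAB23-1 of -0.17 (limma adjusted p = 0.0634). A gene on the same strand, AC099811.2, shares 28.8% of the exonic bases of RAB5C and was at 0 in every library. The sum of the 3 genes lay between 52.2 and 56.2 FPKM in all libraries.

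**Figure D4:**
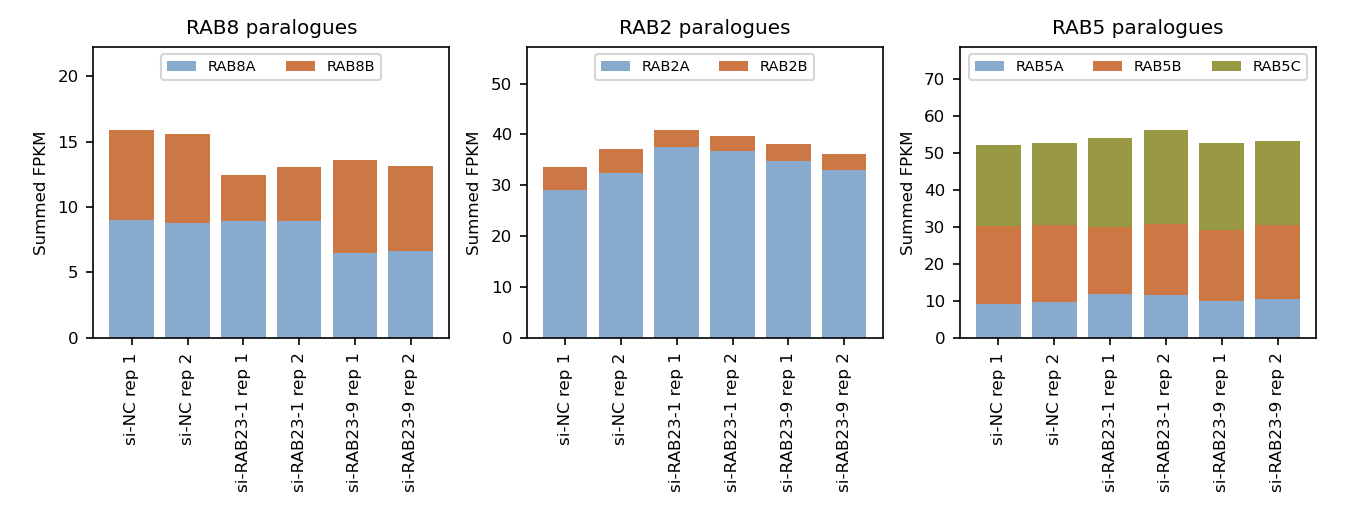
Stacked bars of the FPKM of the RAB8, RAB2 and RAB5 paralogues in each library. The RAB8B part is 28.4% and 31.7% of the RAB8 bars in the si-RAB23-1 libraries and 52.2% and 49.5% in the si-RAB23-9 libraries.

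Among members that were not called, the 5 of highest level in si-NC were RAB1B, RAB1A, RAB11B, RAB31 and RAB11A. RAB1B lay between 74.7 and 78.0 FPKM over all 6 libraries and RAB1A between 62.6 and 69.0. RAB11B, a Rab of the recycling endosome, stood at 56.1 and 56.7 FPKM under si-NC, 47.7 and 53.7 under si-RAB23-1, and 49.5 and 50.4 under si-RAB23-9, so all 4 libraries with a RAB23 siRNA lay below si-NC without passing the test (limma adjusted p = 0.14 and 0.114). RAB31 lay between 39.0 and 42.8 FPKM with overlapping groups, and RAB11A, its level 29.2 and 30.1 FPKM under si-NC, lay at 33.3 and 30.2 under si-RAB23-1 and at 29.1 and 28.5 under si-RAB23-9.

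The remaining uncalled members include some at low level whose ratios to si-NC were as far from 1 as those of called members. RAB43, a Golgi Rab, stood at 1.78 and 1.19 FPKM under si-NC, 1.50 and 2.11 under si-RAB23-1, and 1.81 and 2.10 under si-RAB23-9, with si-NC libraries far apart. RAB3B, a Rab of regulated exocytosis, stood at 1.06 and 1.12 FPKM under si-NC, 0.832 and 0.865 under si-RAB23-1, and 0.923 and 1.08 under si-RAB23-9. Of the more abundant Golgi members, RAB6A stood between 15.3 and 17.7 FPKM and RAB18 between 6.15 and 6.80 over the 6 libraries. RAB33B, which acts in Golgi traffic and autophagy, stood at 1.29 and 1.27 FPKM under si-NC, 1.68 and 1.71 under si-RAB23-1, and 1.63 and 1.65 under si-RAB23-9, so that all 4 libraries with a RAB23 siRNA lay above si-NC without passing the test (limma adjusted p = 0.117 and 0.166). RAB35 and RAB12, Rabs of recycling, also lay above si-NC in those 4 libraries (limma adjusted p of at least 0.107). RAB35 stood at 25.6 to 27.7 FPKM there beside 23.4 and 25.1, and RAB12 at 30.7 to 34.2 beside 29.5 and 29.8. Below si-NC in those 4 libraries lay RAB20 (11.5 to 12.6 FPKM beside 12.9 and 13.2) and RAB3D (6.15 to 7.29 beside 7.53 and 7.77). So did RAB18 (at most 6.43 FPKM beside 6.77 and 6.80), RAB27A (at most 3.22 beside 3.36 and 3.39), RAB11B and RAB5B. None of these passed the test against si-NC (limma adjusted p of at least 0.0634). RAB34, a Rab of the cilium and of macropinosomes, is counted above with the late endosome, lysosome and autophagy members. Its level stood between 25.0 and 26.8 FPKM. RAB19 had as few as 10 reads in a library and spread from 0.605 to 1.59 FPKM, with log2 fold changes of -0.33 and -0.25 (SE 0.210, adjusted p from limma of 0.338 and 0.491), neither past the threshold.

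The proteins that load, anchor and read Rabs were counted from a list of 71 symbols, of which 70 were in the table and 68 were tested. With si-RAB23-1, 7 were higher and 8 lower (22.1%, beside 15.4% of all genes). With si-RAB23-9, 5 were higher and 5 lower (14.7%, beside 13.3%), and between the siRNAs 6 were higher and 8 lower with si-RAB23-9 (20.6%, beside 21.0%). Without replicate 1 or 2 of si-NC, 4 or 3 partners were called with si-RAB23-1 and 1 with si-RAB23-9, and 6 were called with si-RAB23-1 without its replicate 1. Without replicate 1 or 2 of si-RAB23-9, 2 or 1 were called with it, and 5 or 3 between the siRNAs, where 4 were called without replicate 1 of si-RAB23-1 and 8 without either si-NC library.

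Of the prenylation, escort and recycling factors, CHM, a Rab escort protein, was lower with si-RAB23-1, at 4.84 and 5.02 FPKM under si-NC, 3.38 and 3.26 under si-RAB23-1, and 4.23 and 4.17 under si-RAB23-9 (a log2 change of -0.46, limma adjusted p = 0.00597). The other 7 tested genes of that list were not called against si-NC. The largest change with si-RAB23-1 was that of RASEF, a large Rab-like protein, at 6.29 and 6.48 FPKM under si-NC, 4.09 and 4.13 under si-RAB23-1, and 5.90 and 5.71 under si-RAB23-9 (a log2 change of -0.53, limma adjusted p = 0.00363).

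Among effectors, BICD2, a dynein adaptor that binds RAB6, stood at 21.9 and 22.2 FPKM under si-NC, 27.5 and 27.6 under si-RAB23-1, and 35.8 and 36.2 under si-RAB23-9. It was called higher in each comparison with si-NC (by 0.31 and 0.68 on the log2 scale, limma adjusted p = 0.00544 and 0.00137). RAB11FIP2, an effector of RAB11, was called lower in each (-0.44 and -0.51, adjusted p = 0.0364 and 0.0266), as was UNC13D, a RAB27 effector of granule docking (-0.44 and -0.44, adjusted p = 0.0203 and 0.0225). So were MICALL2, an effector of RAB8 and RAB13 (-0.32 and -0.22, adjusted p = 0.018 and 0.0499), and RIN1, an exchange factor of RAB5 (-0.41 and -0.41, adjusted p = 0.0183 and 0.0195).

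The 7-base words were then counted over 10913 tested genes with an annotated 3′ UTR, on the transcript strand. GACATAT was present in 928 of them (8.50%). With si-RAB23-1, 25.6% of these were lower and 4.31% higher, beside 7.11% lower and 10.2% higher among the 9985 genes without it. Among the members, the 6 carriers printed above held 3 lower genes, RAB8B, RAB22A and RAB2B, and 0 higher, while 2 of the 39 others were lower, RAB15 and RAB26, and 4 were higher. RAB10, RAB6B and RAB3B, which have the word, were not called with si-RAB23-1. With si-RAB23-9, RAB2B and RAB10 were lower, as were 4 of the 39 members without the word. Over all genes scanned, 9.70% of the carriers were lower and 6.47% higher with si-RAB23-9, beside 6.36% lower and 9.63% higher of the others.

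AAGTTAA was present in 2025 genes (18.6%), of which 17.3% were lower and 3.95% higher with si-RAB23-9, beside 4.21% lower and 10.6% higher among 8888 others. Of the 11 members that carry it, RAB8A and RAB21 were lower with si-RAB23-9, and of the 34 others 4 were lower. The member medians were -0.04 for carriers and -0.06 for the rest, so over the members the carriers did not have the lower median. TCGGAGA was present in 283 genes (2.59%), and its carriers were more often higher: 20.8% higher and 6.71% lower with si-RAB23-1, beside 9.39% and 8.74% of the others, and 23.7% higher and 3.18% lower with si-RAB23-9, beside 8.98% and 6.74%. Of the members RAB22A and RAB43 carry it, of which RAB22A was lower with si-RAB23-1 and neither was called with si-RAB23-9. RAB15, RAB26, RAB7A and RAB14 have none of these words. Carriers have longer 3′ UTRs, with a median of 3318 bases for GACATAT beside 1243 without it, and the tested members are longer than all tested genes, at 2150 beside 1365 bases. The part of UTR length in these counts was not tested.

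**Figure D5:**
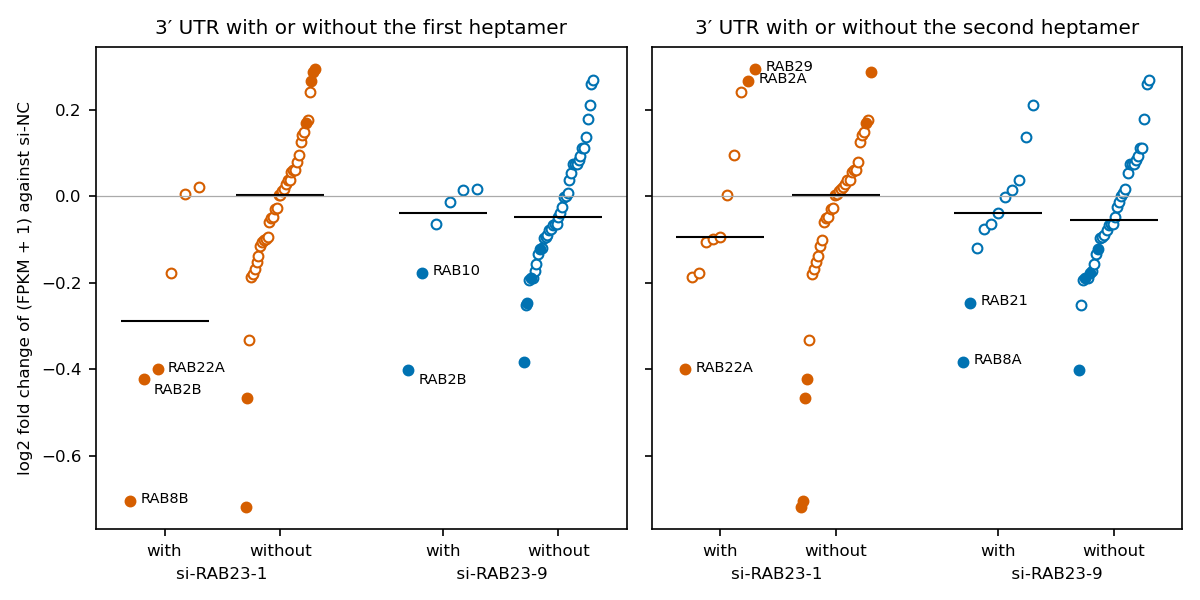
Log2 fold change against si-NC of the tested members by presence of a 7-base word in the 3′ UTR (first heptamer, GACATAT; second, AAGTTAA), with filled points for called members and lines at the medians. RAB8B, RAB22A and RAB2B are the called carriers of GACATAT with si-RAB23-1, and RAB15 and RAB26 lie as low without it.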

How the data were processed

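The authors deposited 1 table of FPKM values with a column per library. Per the submitters' processing notes, which give no roles or order, the tools were STAR 2.5.1b, RSEM 1.2.29, Trimmomatic 0.36, FastQC and edgeR 3.8.5, with the build hg19. However, all 58735 genes in the table have the start and end that GENCODE release 29 gives on GRCh38, and coordinates are printed on that build. FPKM times gene length gave whole reads for all values within 0.01 read.

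From these values log2(FPKM + 1) was fitted with limma 3.58.1 in R 4.3.3, with 1 mean per group over all 6 libraries and eBayes with a trend (3 residual degrees of freedom). The 14352 genes of at least 1 FPKM in at least 2 libraries were tested two-sided, with Benjamini-Hochberg adjustment over all of them, and called under 0.05. FPKM is not a count, so voom on the recovered reads was an alternative only. Replicates are called biological in the series design, but nothing says that cultures were separate. The p-values therefore set group differences only against the spread of these libraries within groups, part of which may be technical. With 2 libraries a group the precision of an SD is low.

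The members, lists, 7-base words and alternatives were chosen with earlier results of these data known. The genes named were every member called in at least 1 comparison, the 5 uncalled members of highest si-NC level, paralogues of called members, members at 0, partners called in each comparison with si-NC, and the 3 partners of largest change for each siRNA. Outside this rule RAB30, RAB3A, RAB3C, RAB3D, RAB6A, RAB6B, RAB12, RAB18, RAB19, RAB20, RAB33B, RAB34, RAB35, RAB3B and RAB43 were chosen after their values were seen. Words were searched on the transcript strand in the 3′ UTRs, without the stop codon, of any GENCODE 29 protein-coding transcript of a gene, so overlapping isoforms count once. RAB6A, RAB6C and RAB6D, and RAB1B with its pseudogene RAB1C, are near-identical and their reads may be split. The fitting script was tested on simulated data.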

Additional observations from a re-analysis of the deposited data

Results flagged for a closer look

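A direct limma test between the RAB23 siRNAs was passed by 13 members. That is 28.9% of the members tested, beside 21.0% of all genes tested. Values are log2 differences, si-RAB23-9 minus si-RAB23-1, on the log2(FPKM + 1) scale. Higher with si-RAB23-9 were RAB15 (0.79), RAB8B (0.69), RAB22A (0.41), RAB40B (0.41), RAB26 (0.40) and RAB40C (0.16). Lower were RAB8A (-0.39), RAB27B (-0.27), RAB29 (-0.26), RAB25 (-0.21), RAB7A (-0.18), RAB10 (-0.18) and RAB5A (-0.18). RAB5A and RAB27B were no longer called when any 1 of the 6 libraries was left out. The calls of RAB25 and RAB40C held only when the library left out was replicate 2 of si-RAB23-1. That of RAB40B held only when it was a si-NC library. The calls of RAB10, RAB29, RAB7A and RAB26 ended without at least 1 of the 6 libraries.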

How the results depend on the processing

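None of the 28 called fold changes of single members changed direction under the alternatives run. Of 27 uncalled ones of the same genes and RAB23, 5 that lay near 0 did (RAB10 and RAB8A with si-RAB23-1, RAB22A and RAB8B with si-RAB23-9, RAB2B between the siRNAs), reaching at most 0.0427 in size. The family ratio for si-RAB23-1 lay between 0.992 and 1.01 when 1 library was left out, on both sides of 1. RAB23 was called lower in each alternative, with log2 fold changes of -1.08 to -1.04 for si-RAB23-1 and -0.98 to -0.92 for si-RAB23-9 when 1 library was left out. Of the members called, 1 of 9 with si-RAB23-1 (RAB8B), 0 of 6 with si-RAB23-9 and 4 of 13 between the siRNAs (RAB15, RAB8A, RAB22A, RAB8B) stayed called under every alternative. Leaving out 1 library gave 1 to 10 called members for si-RAB23-1, 0 to 7 for si-RAB23-9 and 4 to 11 between the siRNAs. For the partners it gave 3 to 10, 1 to 10 and 3 to 11. A fit with 1 library fewer also has fewer degrees of freedom, and a lone library is assumed to vary like the other groups. With voom on recovered reads, members called came to 17 (library totals) and 15 (median-of-ratios sizes) against 9 with si-RAB23-1, and to 11 and 11 against 6 with si-RAB23-9. Partners called with voom came to 29 and 31 against 15, 20 and 19 against 10, and 27 and 29 against 14 between the siRNAs. Without a filter on low values, 1 member was called with si-RAB23-9 and 6 between the siRNAs, and 4 partners in each comparison. With only the 2 groups compared, 8 partners were called between the siRNAs. The family ratio for si-RAB23-9 was 0.948 after median-of-ratios scaling, against 0.955. The cause of these shifts was not tested.

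The replicate numbers did not pair the libraries, with correlations of deviations of -0.06, -0.02 and 0.06. With the replicate number as a block, 7 members were called with si-RAB23-1, 3 with si-RAB23-9 and 11 between the siRNAs. Genes of few reads limit the precision: the smallest read count of a tested member in a library was 10, and that of a called member 154.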
